A study of Citrus reticulata with 36 samples.

Results

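The set described here is 120 transcribed features of the mandarin ovule whose level was highest, or lowest, at the middle of 3 sampled days after pollination (DAP). Of the 128861 features in the deposited tables, 34778 reached the floor of the rule, a group median of at least 2.6 on the log2(CPM + 1) scale in at least 1 group, which is 5.06 CPM. CPM is the read count of a feature scaled to a common library total. Within each tissue of each cultivar, the median at 28 DAP was set against those at 18 and 32 DAP, and the smallest margin over the 4 series of tissue and cultivar was taken as the score. The 60 features with the highest positive peak score form the peak list, and the 60 with the highest positive dip score form the dip list. The measured stage values chose the members, so every stage value below describes them and none is tested.

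The ovules came from 2 ponkan cultivars of Citrus reticulata, Huagan No.4, labelled MT, and Egan No.1, labelled WT. The label MT is not spelled out and is used here as a name. Nucellus and integument were each cut out by laser capture microdissection (a laser frees chosen cells from a section under the microscope) at 18, 28 and 32 DAP. The 12 groups of tissue, day and cultivar hold 3 libraries each, given as biological replicates. How many plants or ovules a library pools, and whether the nucellus and integument libraries with the same number came from the same ovules, is not stated in the labels. A small amount of total RNA went into each library and was amplified with random primers before sequencing.

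The nucellus is the maternal tissue that encloses the embryo sac, and in many citrus cultivars embryos that are clones of the mother plant arise from it. The integument wraps the nucellus and later becomes the seed coat. The weeks after pollination cover fertilization, the first growth of the endosperm and, where it occurs, the onset of embryo formation from nucellar cells. A feature that peaks or dips at a middle day in both tissues and both cultivars is one whose group medians have their extreme at that day in all 4 series.

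The identifiers of the features are not paired with gene names in the files, and no annotation was used here, so no function, marker or pathway is given to any of them. The labelled tissues could for the same reason not be checked against marker genes. Stages appear in the table columns as the digits 1, 2 and 3, taken here as 18, 28 and 32 DAP, following the design text. Total counts ran from 12687779 to 20947644 per library. The library that stood apart most was replicate 1 of WT nucellus at 28 DAP, in which the 100 most abundant features held 51.7% of the counts and 55947 features were above 0, the highest share and the fewest features among the 36 libraries. All of the 120 members passed the filter on low counts.

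Features with an extreme at 28 DAP in every series were few on the peak side and more numerous on the dip side. A positive peak score was found in 216 features, 0.621% of the 34778, and a positive dip score in 1215, which is 3.49%. The same rule applied to the other days gave 2116 features highest at 18 DAP and 694 highest at 32 DAP. It gave 833 features lowest at 18 DAP and 317 lowest at 32 DAP. The highest peak score at 28 DAP was 0.25, against 1.37 for a highest level at 18 DAP and 1.24 for one at 32 DAP. The highest dip score at 28 DAP was 0.64, between the 0.86 of 18 DAP and the 0.61 of 32 DAP. These counts move with the scaling of the libraries. With TMM factors, which scale libraries so that most features keep their level, 1131 features had a positive peak score and 407 a positive dip score. The balance of peaks and dips was therefore turned round by the scaling. Single libraries of 28 DAP also moved them. The peak count was 331, 136 and 124 without replicate 1, 2 or 3 of WT nucellus, and 354 and 116 without replicate 1 or 2 of WT integument. The dip count was 768 without replicate 2 of MT integument.

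**Figure D1:**
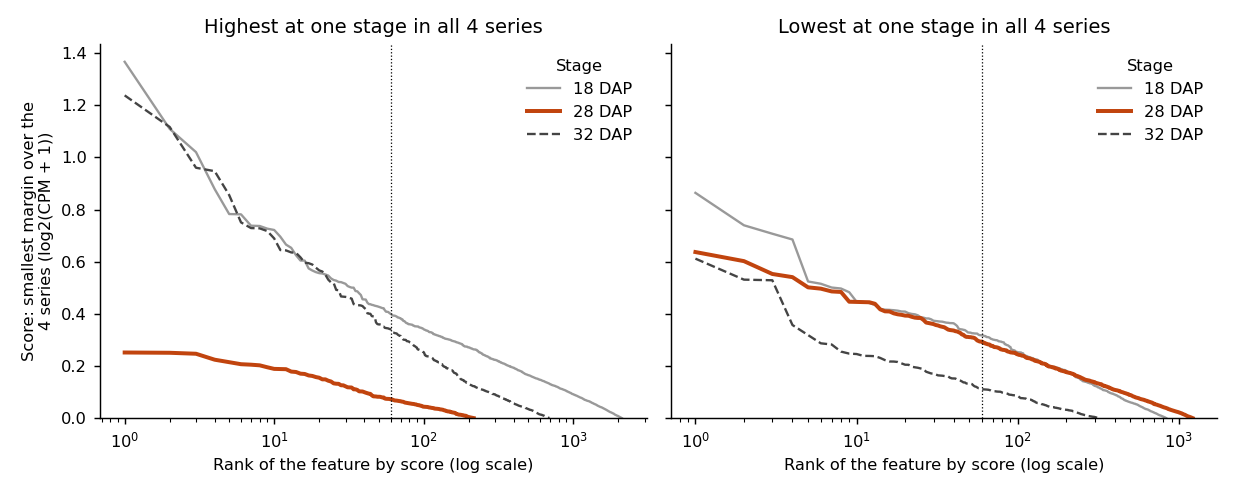
Score of each feature by its rank (log axis) for features highest (left) or lowest (right) at 18, 28 or 32 DAP in all 4 series, in log2(CPM + 1) units; the dotted line marks rank 60. The peak curve of 28 DAP starts at 0.25 and lies under the other days throughout, whereas its dip curve starts at 0.64 and runs near that of 18 DAP.

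The 60 peak scores lay between 0.07 and 0.25, with a median of 0.12, on the log2(CPM + 1) scale. The 60 dip scores lay between 0.29 and 0.64, with a median of 0.36. The ends of the lists are soft. The last peak member, c95315_g1, scored 0.0722 and the first feature outside, c5632_g1, scored 0.0721. On the dip side c128364_g1 stood inside at 0.293 and c66930_g1 outside at 0.289.

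In most members of both lists the score, which is the smallest of the 4 margins, was below the spread between replicates. The standard deviation of log2(CPM + 1) within groups, pooled over the 12 groups, had a median of 0.404 over the peak members and 0.593 over the dip members, against 0.436 over all features at or above the floor. The peak score was larger than this standard deviation in 0 of 60 members and the dip score in 4 of 60. The widest of the 4 margins was larger than it in 36 of 60 peak and 54 of 60 dip members. In any single series, all 3 libraries of 28 DAP lay above the other 6 in 18 of the 240 pairs of peak member and series, beside 2.02% of all such pairs over the features at or above the floor. All 3 lay below the other 6 in 15 of the 240 pairs of dip member and series, beside 2.98%. By series, the 18 pairs were 9 in MT nucellus, beside 4.06% of the features at or above the floor, 1 in WT nucellus, beside 0.161%, 7 in MT integument, beside 3.69%, and 1 in WT integument, beside 0.173%. The 15 were 6 in MT nucellus, beside 3.3%, 2 in WT nucellus, beside 1.49%, 4 in MT integument, beside 6.09%, and 3 in WT integument, beside 1.03%. The stage values chose the members, so these shares are printed without a reading. No member was separated in 3 or 4 series. The words peak and dip thus refer to the order of group medians. Outside the 4 dip members named by count above, they do not mean a margin larger than the pooled standard deviation in every series.

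Expressed as medians over the members, peak features were higher at 28 DAP than at 18 DAP by 0.53 in MT nucellus, 0.44 in WT nucellus, 0.34 in MT integument and 0.38 in WT integument. They were higher at 28 DAP than at 32 DAP by 0.44, 0.24, 0.32 and 0.21 in the same order of series. All of these are log2 differences of group medians. The 2 outer days were close to each other in the peak list, with a median difference of 0.08 for 32 minus 18 DAP, averaged over the series, and 44 of the 60 members were higher at 32 DAP than at 18 DAP.

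Dip features were lower at 28 DAP than at 18 DAP in each series, with median differences of -0.78 in MT nucellus, -0.68 in WT nucellus, -0.77 in MT integument and -0.60 in WT integument. Against 32 DAP the differences were -0.96, -0.49, -0.74 and -0.53 in the same order. The dip was deepest in MT nucellus for 33 of the 60 members, and the peak was tallest there for 32 of the 60. No share over all features was computed for the widest or the smallest margin. Over the features at or above the floor, quartiles of 28 minus 18 DAP were -0.39 and 0.31 in MT nucellus. In WT nucellus they were -0.42 and 0.12. The smallest margin, which sets the score, came from WT integument in 24 and WT nucellus in 15 of the 60 peak members. In the dip list it came from each of these WT series in 20 of the 60 members.

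The whole set of expressed features also shifted at 28 DAP, most of all in WT. In WT nucellus, the median over all features at or above the floor was -0.14 against both 18 and 32 DAP. In WT integument it was -0.10 and -0.12, whereas in MT it lay between -0.06 and 0.03 in both tissues. Relative to that shift, the peak medians in WT nucellus were 0.58 against 18 DAP and 0.38 against 32 DAP. The dip medians in WT nucellus, taken the same way, were -0.54 and -0.35. TMM scaling brought the median over all features in WT nucellus to -0.00 and 0 against 18 and 32 DAP, and in WT integument to 0.04 and 0.04. In MT nucellus it moved the median from -0.02 and 0.03 to 0.05 and 0.11. In MT integument it moved the median from -0.06 and 0.02 to 0.03 and 0.09. With TMM, 56 of the 60 peak members and 52 of the 60 dip members still had a positive score.

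**Figure D2:**
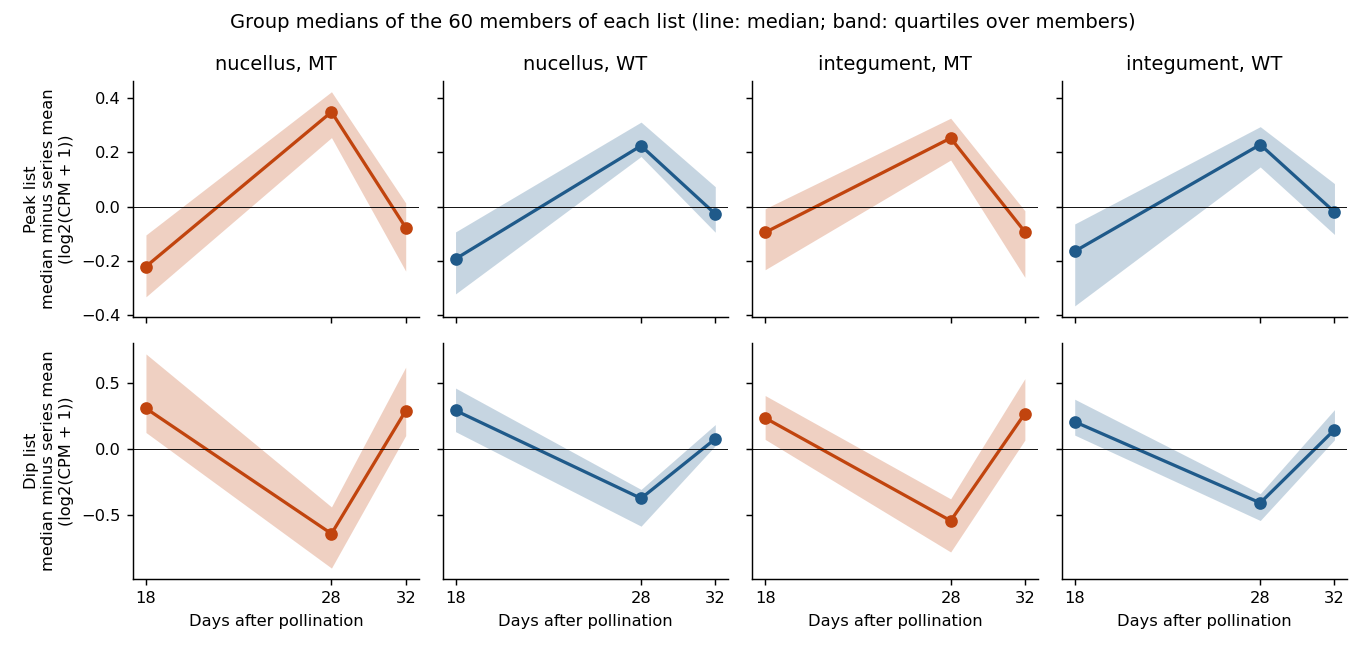
Group medians of the 60 peak members (top) and 60 dip members (bottom) in each series, as log2(CPM + 1) minus the mean of the 3 stages; lines are medians over members and bands their quartiles, with MT in orange and WT in blue. By the choice of members every line turns at 28 DAP, and the dip list in MT nucellus has the widest swing, -0.78 and -0.96 against 18 and 32 DAP.

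The member with the highest peak score, c11726_g1, showed how close the libraries of the 3 days lay. In MT nucellus it had 21.7, 15.1 and 23.2 CPM at 18 DAP, 30.0, 50.2 and 33.9 CPM at 28 DAP, and 36.8, 23.5 and 24.1 CPM at 32 DAP. In WT nucellus it had 36.1, 35.4 and 17.3 CPM at 18 DAP, 15.7, 42.6 and 46.7 CPM at 28 DAP, and 37.9, 32.3 and 29.6 CPM at 32 DAP. The median library was the highest at 28 DAP in both cultivars, but the lowest WT nucellus library of all was also one of 28 DAP, the replicate 1 that stood apart.

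In MT integument c11726_g1 had 23.2, 21.8 and 24.9 CPM at 18 DAP, 25.7, 31.7 and 39.1 CPM at 28 DAP, and 22.1, 20.6 and 28.1 CPM at 32 DAP. In WT integument it had 33.1, 33.1 and 30.5 CPM at 18 DAP, 29.4, 39.6 and 39.7 CPM at 28 DAP, and 46.5, 30.3 and 31.1 CPM at 32 DAP. The days overlapped in all 4 series. Its margins were 0.48 and 0.26 in nucellus of MT and WT, and 0.43 and 0.25 in integument of MT and WT. With means of the replicates in place of medians, its score was -0.06.

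The next 2 peak members by score were c15091_g1 and c42702_g1, each at 0.25. For c15091_g1, the values of WT nucellus were 4.57, 10.2 and 1.75 CPM at 18 DAP, 0.345, 15.97 and 17.7 CPM at 28 DAP, and 34.8, 13.3 and 10.4 CPM at 32 DAP. The lowest value of the series thus belonged to 28 DAP and the highest to 32 DAP, although the median was highest at 28 DAP. Its pooled standard deviation, 0.957 on the log2 scale, was the largest among the peak members. For c42702_g1, the values of WT integument were 12.6, 23.2 and 16.2 CPM at 18 DAP, 34.8, 41.8 and 11.6 CPM at 28 DAP, and 12.0, 29.1 and 30.3 CPM at 32 DAP, again with overlap.

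A tighter course was found in c28947_g1, a peak member of score 0.19 that was chosen for description after its values were seen. Its MT nucellus values were 15.7, 10.8 and 12.9 CPM at 18 DAP, 14.9, 18.1 and 18.5 CPM at 28 DAP, and 14.6, 10.9 and 11.9 CPM at 32 DAP. Its WT integument values were 6.54, 11.4 and 11.2 CPM at 18 DAP, 16.3, 12.9 and 12.9 CPM at 28 DAP, and 12.8, 10.8 and 10.6 CPM at 32 DAP. All libraries of 28 DAP lay above the other days in both cultivars' integument, and nucellus libraries overlapped in both cultivars. It was 1 of 2 peak members, with c110394_g1, whose score stayed positive on the other 4 scales tried and without each library in turn.

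The peak members with the highest mean CPM over the 36 libraries were c18803_g1 at 56.5, c39605_g1 at 53.4 and c89317_g1 at 44.4 CPM. In MT nucellus c18803_g1 had 54.0, 28.1 and 42.9 CPM at 18 DAP, 61.9, 83.3 and 78.0 CPM at 28 DAP, and 47.7, 53.1 and 52.2 CPM at 32 DAP. In WT nucellus it had 43.5, 55.9 and 39.1 CPM at 18 DAP, 65.4, 74.2 and 47.1 CPM at 28 DAP, and 49.96, 61.1 and 57.7 CPM at 32 DAP. The days were separated in MT nucellus and overlapped in WT nucellus, where the margin of the medians was 0.18. Its smallest margin was 0.09, in WT integument. For c39605_g1 the margin was 1.09 in MT nucellus and 0.12 in WT nucellus, and 0.71 in MT integument and 0.11 in WT integument.

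Dips were deeper but rested on more variable features. The first dip member, c18439_g1, had 16.9, 23.1 and 13.1 CPM at 18 DAP in MT nucellus, 9.14, 0.634 and 2.79 CPM at 28 DAP, and 11.8, 7.29 and 20.96 CPM at 32 DAP. In WT nucellus it had 20.8, 9.43 and 5.80 CPM at 18 DAP, 4.48, 3.47 and 9.59 CPM at 28 DAP, and 9.24, 8.93 and 9.37 CPM at 32 DAP. In each of these series, 2 of the 3 libraries of 28 DAP were below all others and the third lay among them.

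In MT integument c18439_g1 had 11.9, 18.0 and 12.5 CPM at 18 DAP, 16.5, 3.25 and 4.38 CPM at 28 DAP, and 10.6, 4.99 and 15.0 CPM at 32 DAP. In WT integument it had 35.5, 7.68 and 10.2 CPM at 18 DAP, 4.06, 6.17 and 8.82 CPM at 28 DAP, and 11.7, 5.54 and 10.8 CPM at 32 DAP. The library of 28 DAP that did not dip in MT was replicate 1 in both tissues. Its margins were 1.75 and 0.90 in nucellus of MT and WT and 1.11 and 0.64 in integument of MT and WT. The length implied by its counts and FPKM was 46.7 bases, the shortest among the features at or above the floor, so that its mean FPKM (read pairs scaled to feature length and library total) of 228 rests on a very short effective length.

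The second and the third dip member had low levels. In WT nucellus c23850_g1 had 5.82, 2.46 and 4.52 CPM at 18 DAP, 0.493, 0.801 and 2.48 CPM at 28 DAP, and 3.01, 2.06 and 0.856 CPM at 32 DAP. In WT integument c25751_g1 had 8.28, 4.79 and 2.67 CPM at 18 DAP, 1.48, 2.51 and 1.95 CPM at 28 DAP, and 3.69, 3.90 and 2.40 CPM at 32 DAP. Both series had 28 DAP libraries that overlapped the range of 32 DAP. The score of c23850_g1, 0.60, was slightly above its pooled standard deviation of 0.592.

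The most abundant dip members by mean CPM were c92019_g1 at 168, c90549_g1 at 152 and c90550_g1 at 111 CPM. In MT nucellus c92019_g1 had 270, 381 and 419 CPM at 18 DAP, 235, 15.2 and 19.9 CPM at 28 DAP, and 152, 204 and 1146 CPM at 32 DAP. In WT nucellus it had 280, 135 and 78.0 CPM at 18 DAP, 87.1, 76.8 and 131 CPM at 28 DAP, and 126, 117 and 70.2 CPM at 32 DAP. The depth of the dip in MT, a margin of 3.30, came from replicates 2 and 3, and the WT margin was 0.42.

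In MT integument c92019_g1 had 135, 162 and 321 CPM at 18 DAP, 126, 5.69 and 17.5 CPM at 28 DAP, and 72.7, 214 and 267 CPM at 32 DAP. In WT integument it had 254, 30.8 and 161 CPM at 18 DAP, 72.9, 41.1 and 57.4 CPM at 28 DAP, and 77.9, 76.5 and 25.3 CPM at 32 DAP. The margin was 3.14 in MT and 0.41 in WT, so that the deeper dip belonged to MT in both tissues. That contrast of cultivars rests on the stage values of the rule and was not tested.

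Low values of MT at 28 DAP in replicates 2 and 3, with a higher replicate 1, recurred in c90549_g1, which had 209, 27.0 and 29 CPM in MT nucellus and 255, 19.2 and 39.96 CPM in MT integument at that day. Its neighbour by number, c90550_g1, did not follow this order. It had 18.2, 22.2 and 31.8 CPM in MT nucellus and 20.4, 2.50 and 24.2 CPM in MT integument at 28 DAP. The highest value of c90550_g1 was 860 CPM, in replicate 2 of MT integument at 32 DAP. Its pooled standard deviation of 1.779 was the largest in the dip list.

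**Figure D3:**
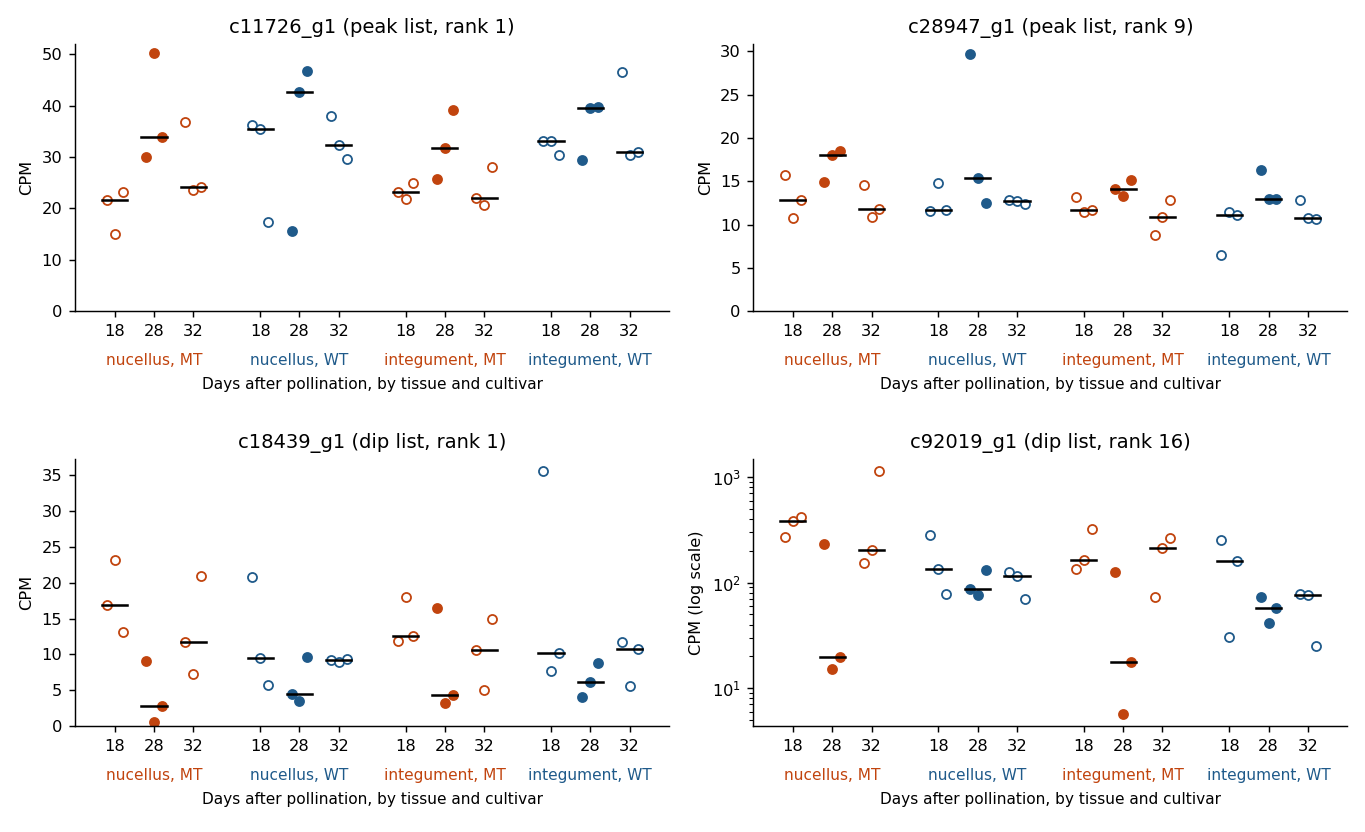
CPM of 4 members in each of the 36 libraries by day, tissue and cultivar; filled points are 28 DAP, bars are group medians, MT is orange and WT blue, and the axis of c92019_g1 is logarithmic. In c18439_g1 and c92019_g1, replicate 1 of MT at 28 DAP (9.14 and 235 CPM in nucellus) lies apart from replicates 2 and 3.

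For each library of 28 DAP, the members that lay beyond all 6 libraries of the other days were counted. The values of 28 DAP chose the members, and no share over all features was computed. The counts are therefore given without a reading. In MT nucellus, 11 of the 60 dip members were below all 6 libraries of the other days in replicate 1, 45 in replicate 2 and 44 in replicate 3. In MT integument the counts were 10, 46 and 33 for replicates 1, 2 and 3. In WT nucellus they were 51, 26 and 14, with the highest count in the replicate 1 that stood apart. In WT integument they were 34, 22 and 28.

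The counts of the peak list have the same limits. In MT nucellus, 22, 47 and 30 of the 60 peak members were above all 6 libraries of the other days in replicates 1, 2 and 3 of 28 DAP. In WT nucellus 18, 22 and 25 were, in MT integument 18, 26 and 34, and in WT integument 10, 21 and 17.

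Library-wide measures also differed between the replicates of 28 DAP. In MT at 28 DAP, replicate 1 had the lowest total count of its group in both tissues, 15972101 in nucellus and 17228193 in integument. The dip members of these libraries lay at a median of 0.70 and 0.58 above their group means on the log2(CPM + 1) scale. In the same libraries, in that order, the features at or above the floor lay at 0.07 and 0.08. The values of 28 DAP chose the members, so their deviations in these libraries are not independent of the rule. In WT nucellus at 28 DAP, replicate 1 had the highest total count of its group, 20299409, and its dip members lay at -0.56 from the group mean and its peak members at -0.40. All features at or above the floor lay at -0.46 in that library. The library with the lowest total count had the highest dip members in 9 of the 12 groups and the highest peak members in 3 of 12. Over all features at or above the floor, it was the highest in 9 of 12. The library in which the 100 most abundant features held the lowest share had the highest dip members in 9 groups and the highest features overall in 11. For the library with the highest TMM factor these counts were 8 and 12. Mean total counts were also highest at 28 DAP in MT, with 14435495, 18371173 and 16478639 at 18, 28 and 32 DAP in nucellus and 15790561, 18958257 and 17106621 in integument. In WT they were highest at 32 DAP, with 17055743, 18781174 and 19566728 in nucellus and 17543009, 18972903 and 19680069 in integument. The part of these measures in the stage values was not tested.

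**Figure D4:**
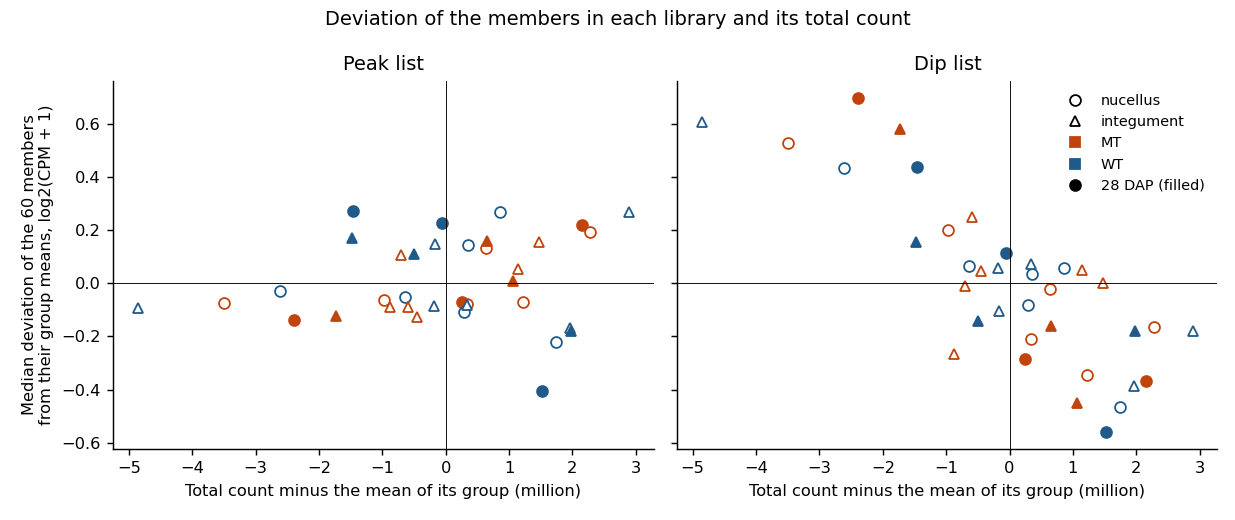
Median deviation of the 60 peak members (left) and 60 dip members (right) of each of the 36 libraries from their group means, in log2(CPM + 1), against the total count of the library minus its group mean; filled symbols are 28 DAP, circles nucellus, triangles integument, orange MT and blue WT. In the dip list the MT libraries of 28 DAP at 0.70 and 0.58 lie at lower total counts than their group.

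Deviations of the members from their group means were also compared between members. Across the 36 libraries, the mean correlation of the deviations from the group mean was 0.345 between dip members and 0.193 between peak members. It was -0.008 between a peak and a dip member, and 0.137 between features at or above the floor in general. These are descriptions over libraries that share total count and scaling, and they have no test.

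Levels and lengths are measures that the rule did not rank. Mean FPKM had a median of 5.08 over the peak members and 4.52 over the dip members, against 6.14 over the features at or above the floor. The length implied by count and FPKM had medians of 2025 bases in the peak list, 1658 in the dip list and 1977 over those features. The highest group median was within 1 log2 unit of the floor in 18 peak and 31 dip members. It had a median of 4.06 over the peak members and 3.55 over the dip members. Over all features at or above the floor its median was 4.18 and its lower quartile 3.41. A group median under 10 reads was found in 4 peak and 2 dip members. In 2 of these peak members, c54944_g1 and c48716_g1, every nucellus group was under 10 reads. Their peak in nucellus therefore rests on a few reads, 4, 4 and 6 in MT and 0, 5 and 6 in WT at 28 DAP for c54944_g1.

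The rule compared days within a tissue and did not rank tissue differences, but its floor could be reached in 1 tissue alone. A member that reached it in 1 tissue only was admitted through the tissue where it is high, and its tissue difference is then no independent result. The floor was reached in both tissues by 49 peak and 44 dip members, in integument only by 10 and 6, and in nucellus only by 1 and 10. The question is whether features chosen for medians with the same extreme day in both tissues also share their level. Nucellus and integument were compared with edgeR's quasi-likelihood test over all 57344 tested features, as the mean of the 6 differences within cultivar and day, with Benjamini-Hochberg adjustment. A feature was called at an adjusted p under 0.05. The labels give the replicates as biological but not how the captures were made independent, so p-values measure the spread between these libraries. In bulk captures, fewer cells of a type and less RNA per cell cannot be told apart.

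Of the 60 peak members, 29 were called between the tissues, 48.3%, beside a background of 35.5% over all tested features and 42.3% over those at or above the floor. Higher in nucellus were 12 of them, beside 16.6% of all tested features, at a median log2 fold change of 0.56 and a range of 0.38 to 3.04. Higher in integument were 17, beside 18.9% of all tested features, at a median of -1.52 and a range from -6.58 to -0.30. Over the features at or above the floor, 21.2% were called higher in nucellus and 21.1% higher in integument. The peak list as a whole had a median log2 fold change of -0.07. Among the 49 peak members at the floor in both tissues, 20 were called, 40.8%, of which 11 were higher in nucellus and 9 in integument. The background among features at the floor in both tissues was 37.5%, so the share was near it. Of these 29300 features, 6137 were called higher in nucellus and 4858 higher in integument.

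Of the 60 dip members, 14 were called between the tissues, 23.3%, beside 35.5% of all tested features and 42.3% of those at or above the floor. Of the 14, 8 were higher in nucellus and 6 in integument, beside 21.2% and 21.1% of the features at or above the floor. The 8 had log2 fold changes of 0.48 to 2.14 and the 6 ranged from -4.07 to -0.58. Among the 44 dip members at the floor in both tissues, 7 were called, 15.9%, beside the 37.5%, of which 5 were higher in nucellus and 2 in integument. The median over all 60 was 0.10, against 0.05 over the features at or above the floor. With a block for same-numbered libraries, a pairing that the labels do not state, 22 of the 60 dip members were called, 36.7%. That stands beside 52.8% of the features at or above the floor. Of the 44, 14 were called with it, 31.8%, beside 49.1% of the features at the floor in both tissues. The call shares of the 2 lists were not tested against each other or against the background.

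The peak member with the largest excess in nucellus was c89317_g1. It ran from 37.8 CPM through a median of 81.5 to 137 CPM over the 18 nucellus libraries, and from 2.80 through 8.502 to 16.1 CPM over the 18 integument libraries. The ranges did not overlap. The means were 79.6 ± 28.8 CPM in nucellus and 9.28 ± 4.37 CPM in integument (SD, n = 18 each). Its edgeR log2 fold change was 3.04 ± 0.20 (SE), higher in nucellus in 6 of 6 groups, at an adjusted p of 1.4e-13.

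The next nucellus-high peak member, c15091_g1, averaged 10.6 ± 8.63 CPM in nucellus and 3.87 ± 2.01 CPM in integument (SD, n = 18 each). Its libraries overlapped, with 0.345 to 34.8 CPM in nucellus and 0.978 to 7.08 CPM in integument. The edgeR log2 fold change was 1.21 ± 0.31, with an adjusted p of 0.0027 and a higher median in nucellus in 5 of 6 groups.

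The pair of peak members with few nucellus reads reached the floor in integument only, so their difference is given as a description of how they were admitted, with no p. In nucellus c54944_g1 ran from 0 to 0.346 CPM with a median of 0.09, against 0.678 to 24.1 CPM with a median of 12.7 in integument. The nucellus value is 42 reads over 18 libraries, against 3953 reads in integument. In the edgeR fit the log2 fold change was -6.58 ± 0.44. For c48716_g1 the nucellus ran from 0 to 0.483 CPM and the integument from 0.493 to 17.5 CPM. Its nucellus total was 41 reads, against 2896 in integument, and its edgeR log2 fold change was -6.25 ± 0.42. These fold changes depend on the small value added to low levels: on the log2(FPKM + 1) scale they were -2.26 and -2.21.

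Among the peak members of highest score, c42702_g1 averaged 3.46 ± 1.37 CPM in nucellus and 25.7 ± 9.19 CPM in integument (SD, n = 18 each), and the highest nucellus library, at 5.58 CPM, was below the lowest integument library, at 11.6 CPM. By edgeR its log2 fold change was -2.93 ± 0.21, given with no p, since this feature too reached the floor in integument only. The first member, c11726_g1, had no called tissue difference, with 30.7 ± 10.3 CPM in nucellus and 30.6 ± 7.16 CPM in integument and an edgeR log2 fold change of -0.07 ± 0.11.

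The dip member with the largest excess in nucellus, c61380_g1, averaged 21.3 ± 17.7 CPM in nucellus and 4.47 ± 3.21 CPM in integument (SD, n = 18 each). The libraries ran from 3.16 to 69.7 CPM in nucellus and from 1.37 to 14.7 CPM in integument, so they overlapped. Its edgeR log2 fold change was 2.14 ± 0.27, at an adjusted p of 1.4e-07, and nucellus was higher in 6 of 6 groups.

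The other nucellus-high dip member named by size, c30349_g1, averaged 4.02 ± 3.01 CPM in nucellus and 1.73 ± 1.13 CPM in integument (SD, n = 18 each). In the edgeR fit the log2 fold change was 1.00 ± 0.32. It reached the floor in nucellus only, so no p is given. Without replicate 2 of WT nucellus at 28 DAP, the edgeR log2 fold change was 0.79 and the call was lost. On the log2(FPKM + 1) scale its log2 fold change was 0.56.

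On the integument side of the dip list, c87882_g1 averaged 2.71 ± 2.18 CPM in nucellus and 41.9 ± 25.9 CPM in integument (SD, n = 18 each). The highest nucellus library, at 7.13 CPM, was below the lowest integument library, at 13.1 CPM. By edgeR its log2 fold change was -4.07 ± 0.32, at an adjusted p of 2.4e-11. This member has the widest tissue difference in the dip list.

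The edgeR call of c37398_g1 depended on 1 library. It averaged 0.858 ± 0.814 CPM in nucellus and 4.03 ± 5.50 CPM in integument (SD, n = 18 each), with an edgeR log2 fold change of -2.34 ± 0.57. It reached the floor in integument only, so no p is given. In WT integument at 28 DAP it had 10.98 CPM in replicate 1 and 0 in replicates 2 and 3. Without that replicate 1, the libraries left in its group held 0 reads, the edgeR log2 fold change was -0.81 and the call was lost. On the log2(FPKM + 1) scale, with all libraries, the log2 fold change was -0.97. There limma, an alternative test on log2 FPKM, called the difference with 1 or 0.1 added to FPKM.

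**Figure D5:**
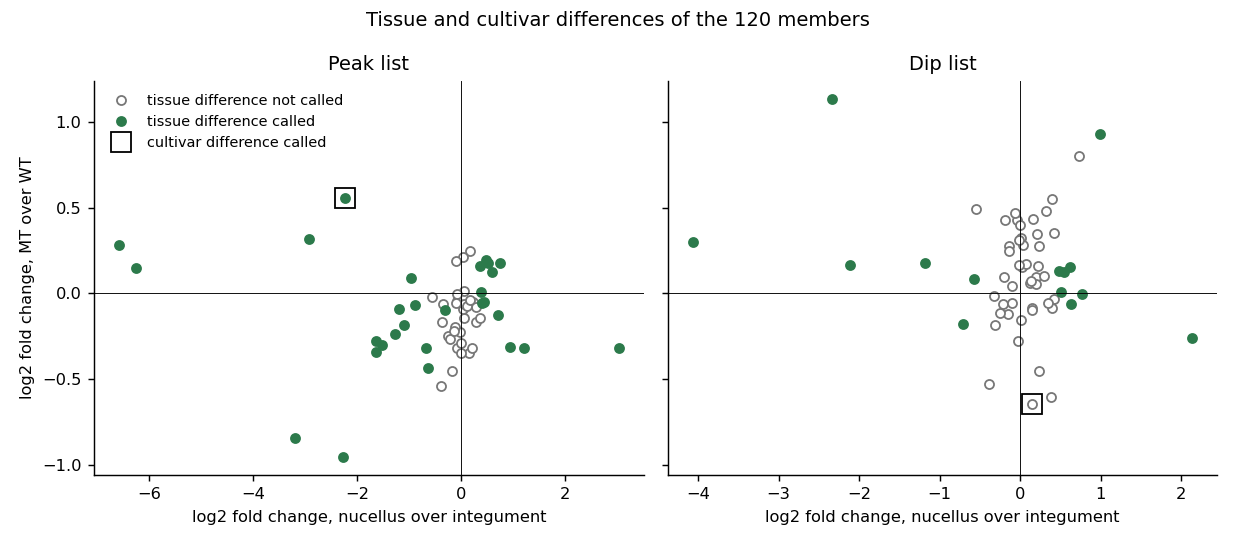
Fitted log2 fold change of each member for MT over WT (vertical axis) against nucellus over integument (horizontal axis), peak list left and dip list right; filled points were called for tissue and boxed points for cultivar by edgeR. The peak list reaches from -6.58 to 3.04 along the tissue axis and the dip list from -4.07 to 2.14, while 1 member in each list is boxed.

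Cultivars were compared in the same way, as the mean of the 6 differences of MT minus WT within tissue and day, which the rule also did not use. The comparison asks whether features chosen for medians with the same extreme day also have a shared level in both cultivars. In each list, 1 of 60 members was called, 1.67%, beside a background of 2.27% over all tested features and 3.14% over those at or above the floor. The peak member was higher in MT, beside 1.32% of all tested features and 2.02% of those at or above the floor. The dip member was higher in WT, beside 0.95% and 1.11%. At an unadjusted p under 0.05 there were 12 peak and 9 dip members by the edgeR test, which is 20% and 15%, beside 20.5% of the features at or above the floor.

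The 2 lists leaned opposite ways in their medians. The peak members had a median log2 fold change of -0.09 for MT over WT, with 15 of 60 above 0. The dip members had 0.10, with 38 of 60 above 0. Over the features at or above the floor the median was 0.01, with 18276 of 34778 above 0. The medians of the lists describe small differences, and members of a list share libraries, so no test is attached. Both signs were the same under all 42 other settings tried. Those settings reuse the same members and nearly the same libraries, so they give no independent support.

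The called peak member was c6409_g1. It ran from 2.17 through a median of 9.83 to 27.1 CPM over the 18 MT libraries, and from 0.788 through 7.26 to 17.7 CPM over the 18 WT libraries. The ranges overlapped. The feature also differed between tissues, with 4.09 ± 1.77 CPM in nucellus and 17.7 ± 5.35 CPM in integument. The MT libraries averaged 13.0 ± 9.11 CPM and the WT libraries 8.74 ± 6.07 CPM (SD, n = 18 each). Its edgeR log2 fold change was 0.56 ± 0.14, with a higher median in MT in 6 of 6 groups, at an adjusted p of 0.0344.

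At 28 DAP the values of c6409_g1 were 6.45, 7.89 and 5.42 CPM in MT nucellus, against 0.788, 4.27 and 5.14 CPM in WT nucellus. In integument they were 22.6, 26.3 and 27.1 CPM in MT, against 11.4, 15.6 and 17.0 CPM in WT. The cultivars did not overlap in either tissue at that day. The call itself was marginal. Over all alternatives its adjusted p ran from 0.00661 to 0.0765. It was lost without any 1 of 18 libraries, at edgeR adjusted p from 0.0501 to 0.0676. In nucellus these were MT replicates 1 and 2 at 18 DAP, MT replicate 2 at 28 DAP, MT replicate 1 at 32 DAP, WT replicates 1 and 3 at 18 DAP and WT replicates 2 and 3 at 32 DAP. In integument they were MT replicates 2 and 3 at 18 DAP and at 28 DAP, MT replicate 3 at 32 DAP, WT replicates 1 and 3 at 18 DAP, WT replicate 2 at 28 DAP and WT replicates 2 and 3 at 32 DAP.

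The called dip member was c118423_g1, lower in MT. It ran from 7.65 through a median of 16.2 to 65.4 CPM over the 18 MT libraries, and from 14.4 through 26.1 to 54.5 CPM over the 18 WT libraries. The MT libraries averaged 20.7 ± 15.9 CPM and the WT libraries 27.8 ± 10.8 CPM (SD, n = 18 each). In the edgeR fit the log2 fold change was -0.64 ± 0.16, at an adjusted p of 0.0347.

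The direction of c118423_g1 was not shared by all days. In nucellus it had 16.4, 13.4 and 15.98 CPM in MT at 18 DAP, against 48.9, 18.1 and 38.0 CPM in WT. At 28 DAP it had 17.5, 7.65 and 9.83 CPM in MT nucellus, against 18.7, 14.8 and 28.1 CPM in WT nucellus. At 32 DAP it had 19.1, 54.3 and 65.4 CPM in MT nucellus, against 33.4, 26.7 and 24.0 CPM in WT nucellus. The median was higher in MT in 2 of the 6 groups. Over all alternatives its adjusted p ran from 0.00783 to 0.0564. It was not called by limma, at an adjusted p of 0.0533 with 1 and with 0.1 added to FPKM. The call was lost without any 1 of 7 libraries, at edgeR adjusted p from 0.0501 to 0.0564: MT nucellus replicate 2 at 28 DAP, WT nucellus replicate 3 at 18 DAP and replicates 2 and 3 at 32 DAP, MT integument replicate 2 at 18 DAP, WT integument replicate 1 at 18 DAP and WT integument replicate 3 at 28 DAP.

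In the other members no cultivar difference passed the edgeR test. DESeq2 also called c11726_g1 in the peak list and c30349_g1 and c90367_g1 in the dip list, the last of them named here after its values were seen. Limma called c90367_g1 too, with 1 or 0.1 added to FPKM. The first peak member, c11726_g1, averaged 27.5 ± 8.31 CPM over MT libraries and 33.7 ± 8.28 CPM over WT libraries (SD, n = 18 each), with an edgeR log2 fold change of -0.32 ± 0.11, a lower median in MT in 6 of 6 groups and an adjusted p of 0.103. Over the alternatives its adjusted p ran from 0.0401 to 0.27. The most abundant dip member, c92019_g1, had an edgeR log2 fold change of 0.80 ± 0.37, at an adjusted p of 0.262.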

How the data were processed

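RNA-seq was measured in 36 libraries of laser-captured ovule tissue. The authors deposited read counts and FPKM per feature, as 2 tables. Tools listed without versions in the submitters' processing notes are RSEM, Bowtie2, cutadapt and DESeq, with the alignment reference not given in the sources used here. Deposited counts are whole numbers, although RSEM estimates need not be. RSEM divides reads between near-identical copies, so a member with such a copy can carry part of its counts. Reads have no molecular identifiers, and the labels do not say which of the 2 instrument models sequenced which library.

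From the deposited counts, CPM was computed by column sum, log2(CPM + 1) was taken, and the rule of the set was applied to group medians. The members and lists were chosen with earlier results of these data known. Tests of tissue and cultivar used edgeR 4.0.16 under R 4.3.3 (quasi-likelihood with robust dispersions, TMM, filterByExpr over 12 groups, 1 mean per group), which left 57344 features. Standard errors of fold changes come from the F statistic. The authors' deposited FPKM served for levels between features, for implied lengths (from values of at least 50 reads) and, on log2 scales with 1 or 0.1 added, for limma 3.58.1 as an alternative. Other alternatives were DESeq2 1.42.0, RLE factors, no filter, another floor or average, a replicate block and each library left out.

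Members named are the 3 of highest score and of highest mean CPM in each list, those at its end, and up to 2 called in each direction of each comparison. Library deviations were taken from group means in place of the planned group medians, which fix the middle library of a group at 0. Scripts were tested on simulated data.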

Additional observations from a re-analysis of the deposited data

How the results depend on the processing

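A positive peak score was found in 216 features, against 96 with means of replicates, 1131 with TMM-scaled CPM and 120 at a floor of 4, and in 116 to 354 with 1 library left out. A positive dip score was found in 1215, against 407 with TMM, 720 on log2(FPKM + 1), 2780 without a floor and 563 at a floor of 4, and in 768 to 1622 with 1 library left out. Of the 60 peak members, 13 were kept with means, 24 with TMM and 32 at a floor of 4, and 21 to 57 with 1 library left out. Of the 60 dip members, 14 were kept with means, 30 with TMM, 32 on log2(FPKM + 1) and 21 at a floor of 4, and 28 to 58 with 1 library left out. With 1 library left out, the lists kept under 40 members only without a library of 28 DAP. The peak list kept 31, 27 and 29 without replicate 1, 2 or 3 of WT nucellus and 30, 21 and 32 without those of WT integument. The dip list kept 31, 28 and 30 without those of WT nucellus, 37 and 38 without replicate 2 or 3 of MT nucellus, 32 and 39 without those of MT integument, and 38 and 36 without replicate 1 or 3 of WT integument. A positive score on the other 4 scales and without each library was kept by 2 peak and 15 dip members. The cause was not tested.

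Tissue calls numbered 29 in the peak list and 27 to 30 with 1 library left out, and 14 in the dip list and 11 to 17. Restricted to members at the floor in both tissues, a split chosen after seeing the data, they numbered 20 and 7. Cultivar calls, 1 in each list, were 2 and 3 with DESeq2 and 0 in the peak list with limma on log2(FPKM + 0.1). On both limma scales the dip call was c90367_g1, and c118423_g1 was not called. With 1 library left out they ran from 0 to 3 in the peak list and from 0 to 4 in the dip list, with 3 and 2 without replicate 1 of WT nucellus at 28 DAP and 4 in the dip list without replicate 1 of WT integument at 28 DAP.

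Same-numbered libraries of both tissues deviated together in 17 of 18 pairs (correlation over 0.1, lowest 0.053) and those of both cultivars in 5 of 18. The labels do not state a pairing and 1 tissue pair stayed under 0.1, so the tests have no block. Whether same-numbered tissues came from the same ovules was not settled. As a hint from the data, 35 of 36 libraries correlated best with their own number in the other tissue, and 13 of 36 in the other cultivar. A replicate block gave 34 tissue calls in the peak list and 22 in the dip list, 56.7% and 36.7%, beside 52.8% of the features at or above the floor, where the fit without it gave 42.3%. Among members at the floor in both tissues, the block gave 24 peak and 14 dip calls. These are 49% and 31.8%, beside 49.1% of the features at the floor in both tissues. For cultivar the block was by day and number. It gave 2 peak and 3 dip cultivar calls (c11726_g1, c120322_g1 and c90367_g1, listed after their values were seen, besides c6409_g1 and c118423_g1). Depth limits the 4 peak and 2 dip members with a group median under 10 reads.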
